A study of Homo sapiens with 2 samples.

Results

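Granins and the enzymes that process prohormones were examined in hNCI-H716 cells, an established human line from a colorectal adenocarcinoma of the cecum that serves as a single-line model of the intestinal L-cell. The set was chosen by symbol and holds 10 genes, all of which had a row among the 19989 genes of the table: the granins CHGA, CHGB, SCG2, SCG3 and VGF, the convertases PCSK1 and PCSK2, their binding partners SCG5 and PCSK1N, and the carboxypeptidase CPE. Cells of both groups were plated on Matrigel and then held for 48 h in DMEM with 10% FBS and penicillin/streptomycin, the low glucose group at 5.5 mM and the high glucose group at 25 mM. A single polyA-selected RNA-seq library was made per group, without strand marking. The low glucose library held 21757641 estimated counts and the high glucose library 19456389, and levels are CPM (counts scaled to a fixed library total) of these totals after trimmed mean of M-values (TMM) scaling. There were no replicates, so each difference compares 2 libraries and has no test. The 95% intervals given with levels (Wilson) and with log2 ratios (exact binomial) cover counting error only. In bulk RNA, fewer cells that express a gene and less of its RNA per cell cannot be told apart.

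Peptide hormones are made as long precursors that pass through the Golgi into dense-core granules, from which they are released when the cell is stimulated. Granins are acidic, calcium-binding proteins of these granules that aggregate with the cargo, and several are themselves cut into bioactive peptides. Inside the granule, the proprotein convertases PC1/3 (gene PCSK1) and PC2 (gene PCSK2) cut precursors after pairs of basic residues, and carboxypeptidase E (gene CPE) trims the basic residues left behind. In L-cells, PC1/3 releases glucagon-like peptide-1 (GLP-1) from proglucagon, whereas in pancreatic α-cells PC2 releases glucagon from the same precursor. PC2 matures with the help of 7B2 (gene SCG5), and proSAAS (gene PCSK1N) can inhibit PC1/3.

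The identity of the line was checked against fixed markers. Of 8 enteroendocrine markers, 4 averaged at least 1 CPM (GCG, INSM1, ISL1 and PAX6), FEV was lower, and PYY, NEUROD1 and NKX2-2 had no row in the table. Of 8 intestinal epithelial markers, 6 passed that level, among them CDH17, KRT8 and KRT18, whereas EPCAM was at 3.37 and 3.50 CPM in low and high glucose, KRT20 was near 0 and CDX1 had no row. Markers used for other cell types were also present: 4 of 6 for neurons, led by STMN2, and 3 of 5 for fibroblasts, led by COL3A1, while 0 of 5 for leukocytes reached 1 CPM. In CPM, the summed level of the 8 enteroendocrine markers was 2056 in low and 1911 in high glucose, that of the epithelial markers 1020 and 1107, that of the neuronal markers 391 and 440, and that of the fibroblast markers 996 and 928. These sums are carried by a few genes and hide single markers that differed. Of the 6 epithelial markers, 5 were higher in high glucose by the counting interval, against 15.8% of all genes averaging 1 CPM or more. This rule passes abundant genes more readily: in either direction, it took in 62.3% of genes averaging at least 100 CPM. KRT8, KRT18 and CDH17 were at that level. Only 2 of the 6, VIL1 and CDX2, were higher by more than 1.2-fold, against 6.43% of all genes averaging 1 CPM or more. VIL1, a protein of the brush border, was at 11.7 CPM in low and 17.8 CPM in high glucose (1.53-fold), and CDX2, an intestinal transcription factor, at 30.5 and 38.2 CPM (1.25-fold). The neuronal sum followed STMN2, at 327 and 382 CPM, whereas SNAP25, a SNARE protein of exocytosis, was lower in high glucose, at 27.95 and 22.85 CPM (1.22-fold), and the intervals of SYN1 and NEFL included a ratio of 1. The fibroblast sum followed COL3A1, at 815 and 742 CPM, whereas COL1A2 was at 3.74 and 4.94 CPM, with a counting interval that included a ratio of 1. The part of these markers in the differences described here was not tested.

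The granins were abundant. VGF, a neurotrophin-induced granin whose peptides act on energy balance, was at 1694 CPM in low glucose, with a 95% interval of 1677 to 1712 from 36805 estimated counts. In high glucose it was at 1377 CPM, with an interval of 1361 to 1394 from 26842 estimated counts. CHGB, a matrix protein of the granule core, was at 836 CPM in low and 800.4 CPM in high glucose. CHGA, the classical marker of enteroendocrine cells and precursor of pancreastatin, was at 704 and 653 CPM in the same order. All 3 were somewhat lower in the high glucose library, and VGF the most. SCG3, which anchors granin aggregates to the granule membrane, was at 345 CPM in low and 321 CPM in high glucose. SCG2, the precursor of secretoneurin, was at 203.9 and 204.4 CPM, a difference smaller than its counting error. The 5 granins together took 0.378% of all CPM in low glucose and 0.336% in high glucose.

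Of the convertases, PCSK1 was the abundant one. PCSK1 was at 555 CPM in low glucose (545 to 565) and 600.3 CPM in high glucose (589.5 to 611), the only member over 1 CPM whose interval lay wholly above 0 for the ratio of high to low. PCSK2 was at 12.3 CPM in both libraries, with intervals of 10.9 to 13.8 in low and 10.8 to 13.9 in high glucose. Its partner SCG5 was also low, at 6.09 CPM in low glucose (5.12 to 7.20) and 4.12 CPM in high glucose (3.30 to 5.11), from 132 and 80.0 estimated counts. PCSK1N was close to the limit of detection. It had 4 estimated counts in low and 6 in high glucose, or 0.196 and 0.32 CPM, against the 0.138 and 0.154 CPM that a count of 0 allows in these libraries (3 counts). CPE was at 543 CPM in both libraries (533 to 553 in each).

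Levels of different genes were set side by side per kb of transcript, with the median length of the coding transcripts of each gene. On this scale, VGF stood first, at 684 CPM per kb in low and 556 CPM per kb in high glucose, and ranked 124 and 149 of 13767 coding genes with a length. It was followed by CHGA at 398 and 369, CHGB at 328 and 314, CPE at 224 in both, PCSK1 at 152 and 164, SCG3 at 126 and 117, and SCG2 at 79.2 and 79.3 CPM per kb. These 7 genes lay at or above the 91.5 percentile of coding genes in both libraries. SCG5 at 5.11 and 3.46, PCSK2 at 2.62 and 2.63, and PCSK1N at 0.187 and 0.305 CPM per kb formed a separate low group, between the 13.2 and the 41.6 percentile. The order was the same in the 2 libraries. Neighbours in it had intervals that did not overlap, except SCG5 and PCSK2 in high glucose. With the longest coding transcript as the length, all 45 pairs of genes kept their order in low glucose.

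**Figure D1:**
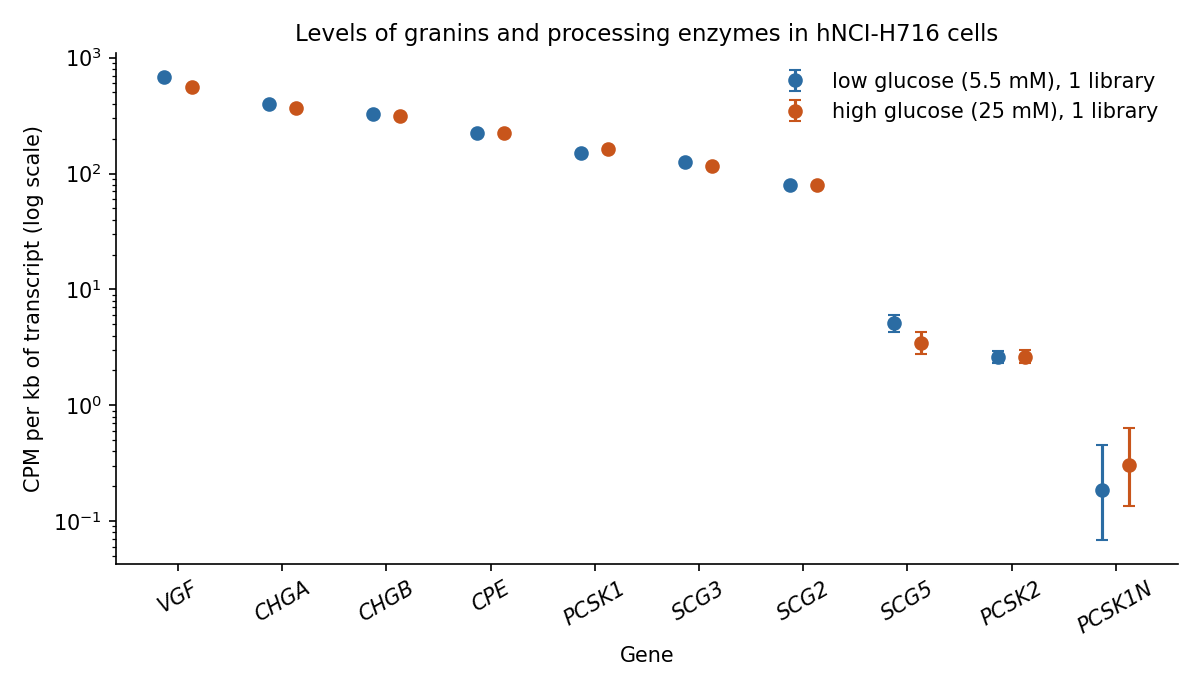
Level of each of the 10 genes in CPM per kb of transcript (log axis), with 1 point for the low glucose library and 1 for the high glucose library, and bars for the 95% Wilson interval from counts, which are smaller than the points for the 7 abundant genes. Granins, CPE and PCSK1 lie between 79.2 and 684 CPM per kb, whereas SCG5, PCSK2 and PCSK1N lie at or under 5.11 CPM per kb.

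Within a library, PCSK1 exceeded PCSK2 per kb by 57.9-fold in low glucose (51.3 to 65.6) and 62.4-fold in high glucose (55 to 71.3). It exceeded FURIN, the ubiquitous convertase of the Golgi, by 6.99-fold in low glucose (6.67 to 7.33) and 7.61-fold in high glucose (7.24 to 8.01). FURIN acts in most cell types, whereas PCSK1 is typical of endocrine cells and neurons. Per kb, PCSK1 was 812-fold above PCSK1N in low glucose (338 to 3176) and 538-fold in high glucose (257 to 1524), where the wide intervals come from the few counts of PCSK1N. SCG5 and PCSK2, a chaperone and its enzyme, were nearer to each other: PCSK2 was at 0.513 times SCG5 per kb in low glucose (0.415 to 0.638) and 0.760 times in high glucose (0.589 to 0.994). CPE was 8.91-fold above CPD, the carboxypeptidase of the trans-Golgi network, in both libraries (8.58 to 9.24 in low and 8.56 to 9.26 in high glucose).

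The libraries were then compared gene by gene, as log2 ratios (high over low glucose). In all, 2 members of the set differed by more than 1.2-fold, a size chosen as the threshold, and both were lower in high glucose. VGF was lower by 18.7%, or 1.23-fold, with a log2 ratio of -0.30 (-0.32 to -0.28). SCG5 was lower by 32.4%, or 1.48-fold, with a log2 ratio of -0.56 (-0.98 to -0.15). These were 2 of the 9 members averaging at least 1 CPM, and 0 of the 9 were higher by that size. Among all 13052 genes at that level, 11.3% were lower and 6.43% higher by more than 1.2-fold, 17.8% in all, so the count of members is near the background. PCSK1N, at under 1 CPM, was not counted: its log2 ratio was 0.71 (-1.33 to 3.01), and no difference was detectable at this depth.

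The other ratios were small. CHGA had a log2 ratio of -0.11 (-0.14 to -0.075), SCG3 of -0.11 (-0.15 to -0.057) and CHGB of -0.062 (-0.093 to -0.031). PCSK1 went the other way, at 0.11 (0.076 to 0.15), an 8.12% difference. The log2 ratio was 0.0030 for SCG2 (-0.059 to 0.065), 0.0024 for PCSK2 (-0.26 to 0.26) and -0.00059 for CPE (-0.039 to 0.037). Differences of over 1.2-fold are outside the interval for SCG2, PCSK2 and CPE, as far as counting error goes. By the counting interval alone, 5 of the 9 members were lower and 1 was higher in high glucose. Over all 13052 genes, 16% were lower and 15.8% higher by this rule, 31.7% in all, and the rule passes abundant genes more readily: it took in 62.3% of the 2239 genes averaging at least 100 CPM. The median log2 ratio of the 9 members was -0.062, against -0.0064 over all genes averaging at least 1 CPM. It was -0.031 both with no filter and with a minimum mean of 10 CPM, so its size depends on which low genes are counted.

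**Figure D2:**
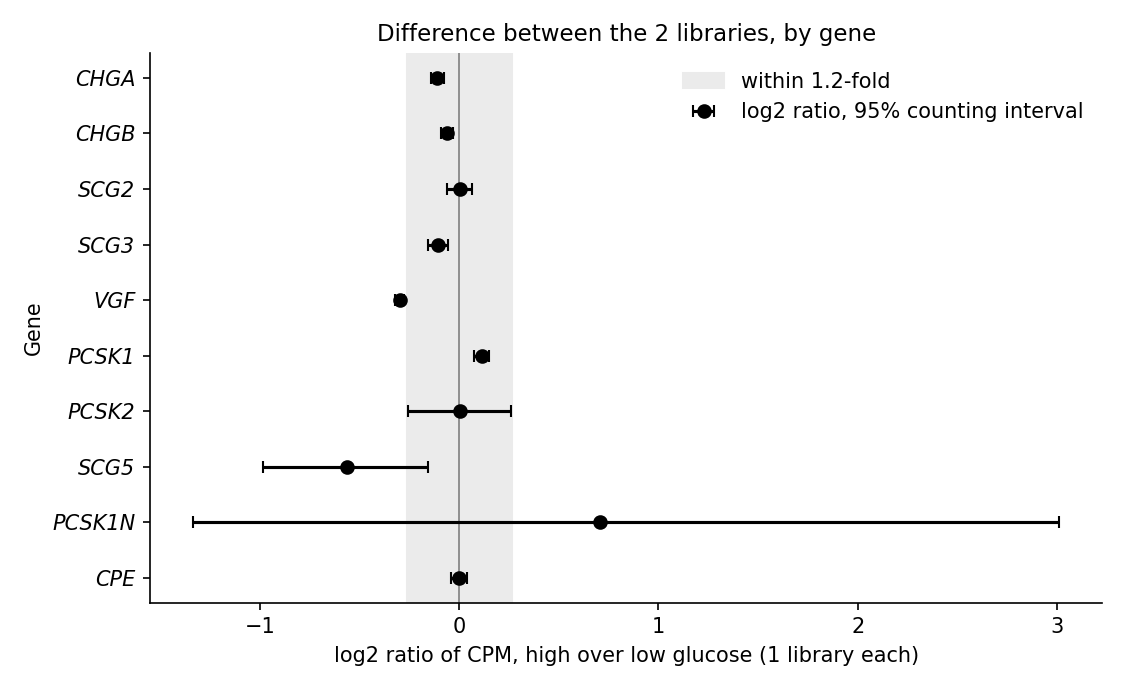
Log2 ratio of CPM in high over low glucose for each of the 10 genes (points, 1 library at each concentration), with 95% exact binomial counting intervals as bars and a grey band for differences within 1.2-fold. VGF and SCG5 lie to the left of the band, the other abundant genes lie inside it, and the interval of PCSK1N runs from -1.33 to 3.01.

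VGF stood out among genes of like abundance more than SCG5 did. Of the 2239 genes averaging at least 100 CPM, 1.97% were lower by more than 1.2-fold, and 1.3% had a log2 ratio as low as that of VGF. The SD of the log2 ratios of these genes was 0.13. SCG5 fell in the band from 1 to 10 CPM, where the SD was 0.51 and 9.04% of 3707 genes had as low a ratio. For CHGA and SCG3, 16.2% and 16.8% of the genes averaging at least 100 CPM were as low, and for PCSK1 21.0% were as high.

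**Figure D3:**
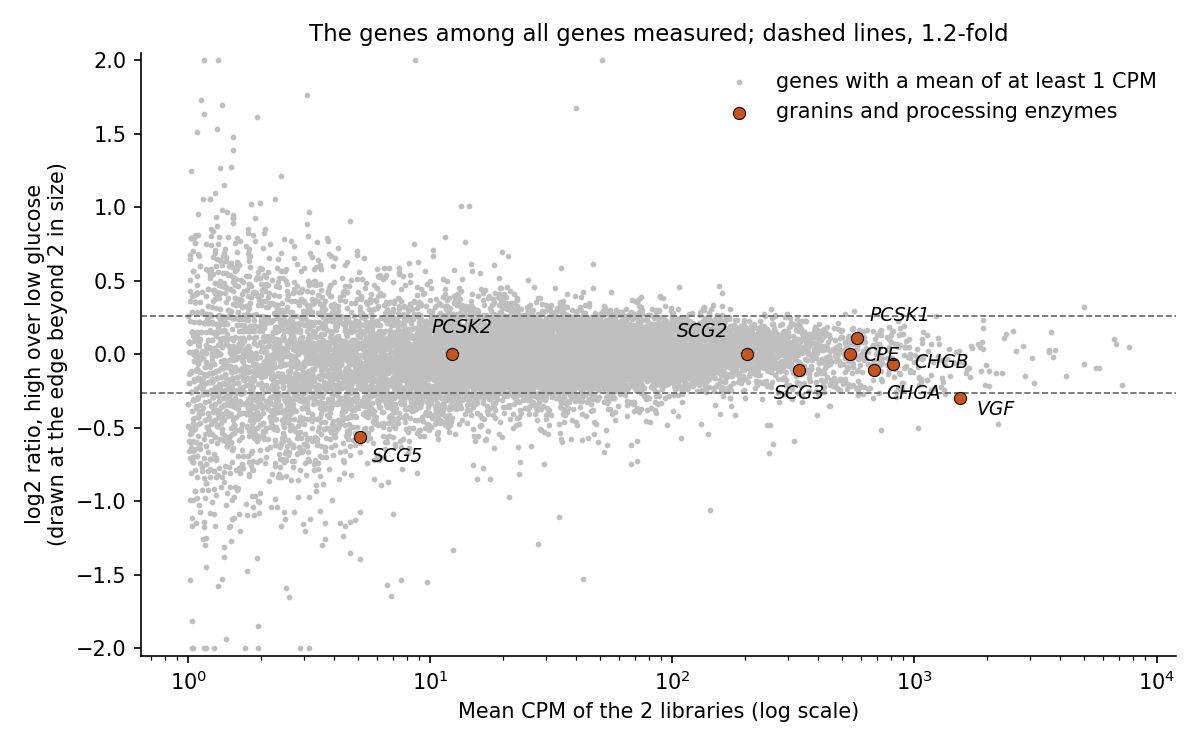
Log2 ratio of high over low glucose against mean CPM (log axis) for the 13052 genes averaging at least 1 CPM (grey) and the 9 members of the set at that level (orange), with dashed lines at 1.2-fold. VGF, at -0.30, lies at the lower edge of the cloud at its abundance, whereas SCG5, at -0.56, lies within the wider cloud of low genes.

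The ratios of all genes also varied with the GC content of their transcripts, and VGF transcripts are rich in GC, at 69.6%. Over genes averaging at least 10 CPM, the median log2 ratio was 0.043 for the 2105 genes with 40 to 45% GC and -0.094 for the 257 genes with at least 65% GC. In these bands, 2.38% and 15.2% of the genes were lower by more than 1.2-fold. With the median of its band taken off, an alternative added after the data were seen, VGF had a log2 ratio of -0.20 and was no longer past 1.2-fold, which left SCG5, at -0.60, as the only member past it. With the same adjustment, 8.76% of 11288 genes were lower by that size. Of the 42 genes with at least 65% GC and a mean of at least 100 CPM, 3 had a ratio as low as VGF, itself included. CHGA, at 62.5% GC, moved from -0.11 to -0.040 under the same adjustment, whereas SCG3, at 41.6% GC, moved from -0.11 to -0.15. PCSK1, at 45.7% GC, moved from 0.11 to 0.074, just under the lower end of its counting interval (0.076). CPE, at 47.5% GC, moved from -0.00059 to -0.039, just past the lower end of its interval. The part of GC content in these differences was not tested beyond this adjustment.

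**Figure D4:**
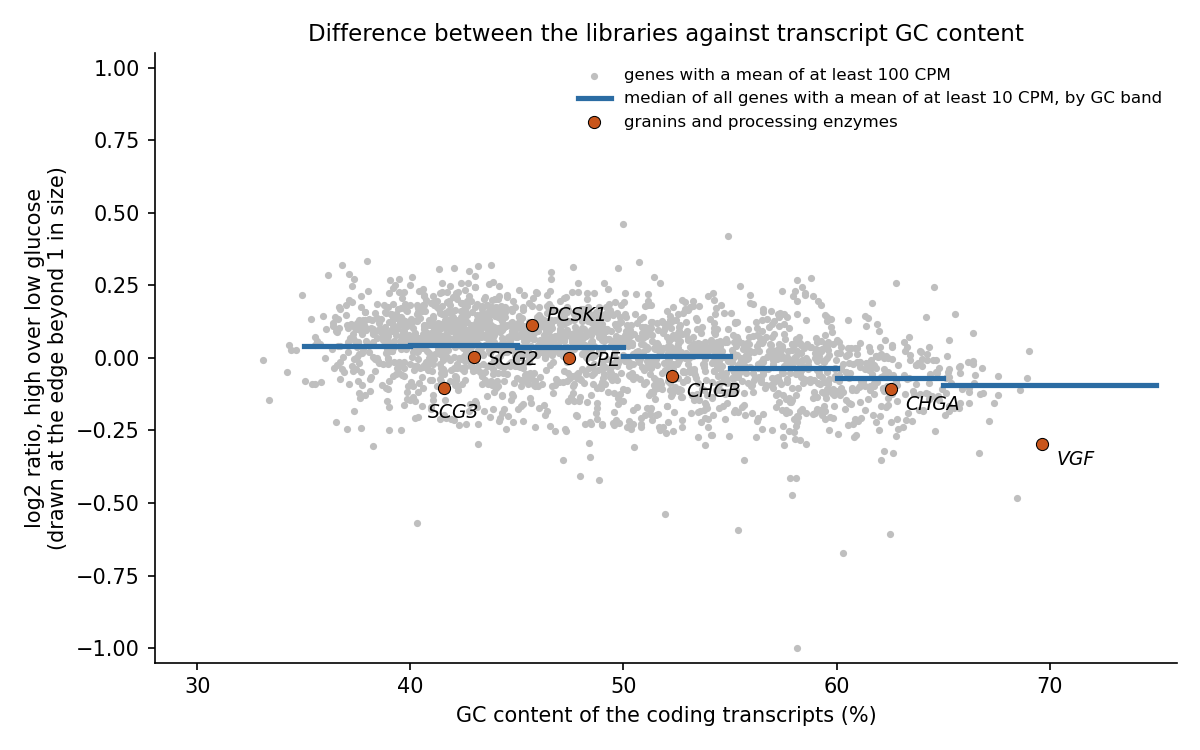
Log2 ratio of high over low glucose against the GC content of the coding transcripts (percent) for genes averaging at least 100 CPM (grey) and the members at that level (orange), with blue lines for the median of all genes averaging at least 10 CPM in each GC band. The lines lie between 0.039 and 0.043 under 50% GC and then descend to -0.094, and VGF, at 69.6% GC, lies below the last of them.

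Ratios between genes of one library do not depend on how the libraries were scaled. They can still carry the trend with GC content described above, and were not adjusted for it. Relative to the summed counts of the other 9 genes, VGF was lower in high glucose, with a log2 ratio of ratios of -0.27 (-0.30 to -0.24). Its share of the counts of the set went from 34.6% in low to 30.5% in high glucose. PCSK1 was higher relative to the others, at 0.26 (0.22 to 0.30), and its share went from 11.3% to 13.3%. CHGA, at 0.011 (-0.026 to 0.047), and SCG3, at 0.013 (-0.037 to 0.064), did not differ from the rest of the set beyond counting error. CPE and SCG2, both at 0.13, and CHGB, at 0.067, were slightly higher relative to the others. Because VGF holds the largest share, its lower count raises the relative values of the others by construction.

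Set against single genes, VGF was lower relative to each of the other granins, from -0.19 against CHGA (-0.23 to -0.15) to -0.30 against SCG2 (-0.37 to -0.24). VGF was also lower relative to PCSK1, at -0.41 (-0.45 to -0.37), the widest gap between the abundant genes compared. None of these between-gene ratios was adjusted for GC content. With the median of each GC band taken off, the log2 ratio was -0.20 for VGF and 0.074 for PCSK1. It was -0.040 for CHGA, -0.067 for CHGB, -0.040 for SCG2 and -0.15 for SCG3. VGF stayed the lowest of these genes, by narrower gaps. SCG5 was lower relative to PCSK2, at -0.57 (-1.06 to -0.077). Per kb, VGF made up 42.4% of the level of the 5 granins in low glucose and 38.7% in high glucose, CHGA 24.6% and 25.7%, CHGB 20.3% and 21.9%, SCG3 7.80% and 8.15%, and SCG2 4.90% and 5.53%.

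Genes that encode prohormones, the substrates of these enzymes, were examined next, at the level of RNA only. GCG, which encodes proglucagon, was at 1954 CPM in low and 1808 CPM in high glucose, with a log2 ratio of -0.11 (-0.13 to -0.092). Relative to GCG, CHGA did not differ between the libraries beyond counting error, at 0.0034 (-0.036 to 0.043). PCSK1 was higher relative to GCG in high glucose, at 0.22 (0.18 to 0.27), and VGF lower, at -0.19 (-0.22 to -0.16). The ratios to GCG were likewise not adjusted for GC content. Per kb, GCG exceeded PCSK1 by 12.3-fold in low glucose (12.1 to 12.6) and 10.6-fold in high glucose (10.3 to 10.8). SST, the precursor of somatostatin, was at 547 and 514 CPM. NTS, the neurotensin precursor, was at 2.87 and 2.48 CPM, and the other 11 of 14 listed prohormone genes, such as PYY, CCK and INSL5, had no row.

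Other genes of prohormone processing were taken as fixed lists. Of 51 listed genes, 35 had a row and 30 reached a mean of 1 CPM, of which 1 was higher and 2 were lower in high glucose by more than 1.2-fold, beside the backgrounds of 6.43% and 11.3% given above. Of 7 other convertases, 5 reached 1 CPM and 0 were past 1.2-fold. MBTPS1, which cleaves membrane-bound transcription factors in the Golgi, had a log2 ratio of -0.089. MBTPS1, PCSK6, FURIN and PCSK7 lay between 9.98 and 24.3 CPM per kb, and PCSK4 and PCSK5 under 1 CPM.

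Of 7 other carboxypeptidases of the CPE family, CPD was the highest, at 25.2 CPM per kb in both libraries, and CPZ, CPXM1 and CPXM2 had no row. AEBP1, a carboxypeptidase-like protein of the extracellular matrix, was higher in high glucose, at 1.3 and 2.17 CPM, with a log2 ratio of 0.74 (0.018 to 1.49). Among the peptide-modifying enzymes, PAM, which amidates the carboxyl end of peptides, was at 39.4 and 40.6 CPM, and TPST1, a tyrosylprotein sulfotransferase, was the highest per kb. Its relative TPST2 was lower in high glucose, at 4.39 and 3.09 CPM, with a log2 ratio of -0.50 (-0.997 to -0.025). Both AEBP1 and TPST2 rest on few counts, and each interval ends near 0.

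Of 11 genes of dense-core granule biogenesis, 10 reached 1 CPM and 0 were past 1.2-fold, with log2 ratios from -0.14 to 0.16. RAB2A, a small GTPase of the early secretory pathway, was the highest of these per kb. HID1, which is needed for granule maturation, was at 56.1 and 58.4 CPM. PTPRN, the granule membrane protein IA-2, was at 0.150 and 0.32 CPM, whereas its paralog PTPRN2 was at 12.2 and 13.3 CPM. Among the transcription factors known for granin genes, REST, which represses neuronal and neuroendocrine genes, was lower in high glucose, at 26.2 and 19.4 CPM, with a log2 ratio of -0.44 (-0.63 to -0.25). RCOR1, CREB1, CREM and INSM1 were within 1.2-fold, and NEUROD1 had no row.

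**Figure D5:**
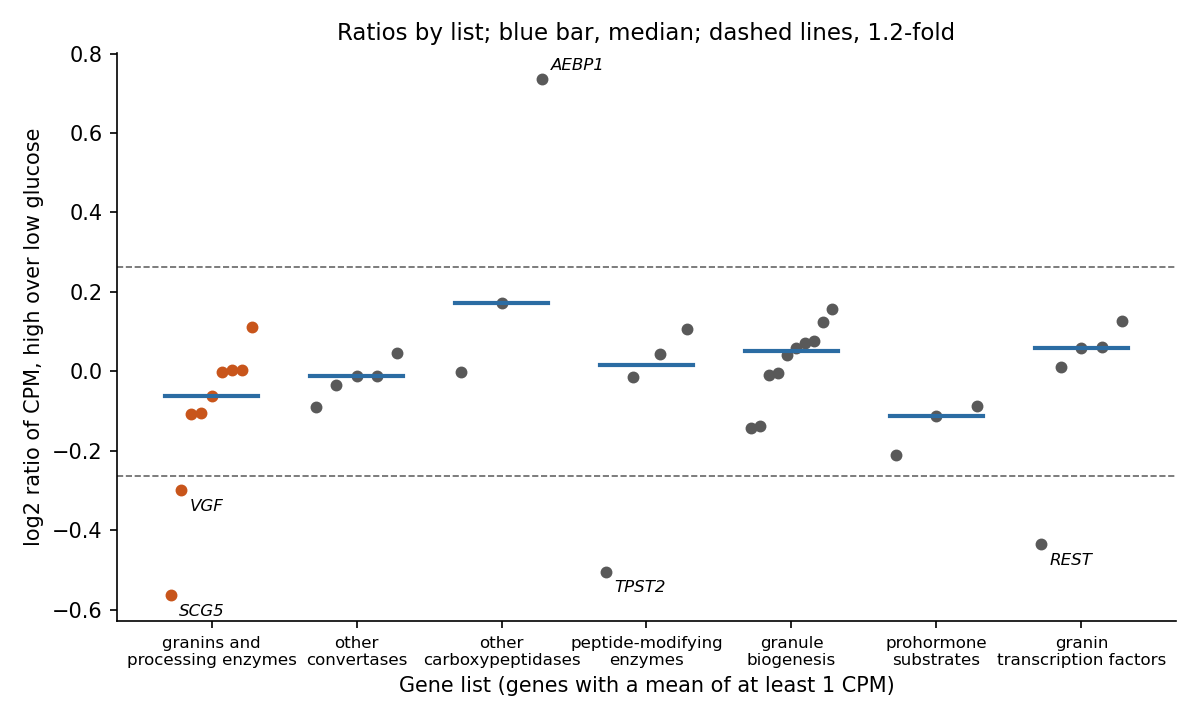
Log2 ratio of high over low glucose for each gene averaging at least 1 CPM, by list, with a blue bar for the median of the list and dashed lines at 1.2-fold. Beside VGF and SCG5, only AEBP1, TPST2 and REST lie past the lines among the genes plotted.

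Promoter sequences of the set were taken from RefSeq (GRCh38.p14), as windows from 250 bases before to 50 bases after each annotated start. Windows were matched for 8 of the 10 genes, with 2 windows each for PCSK1 and PCSK2, and none for CHGB and SCG2. The cAMP response element TGACGTCA, a palindrome bound by CREB-family factors, was found in CHGA, VGF and PCSK1, 3 of these 8 genes. It occurs in 2.25% of the 27305 genes with a window and in 3.98% of the 9165 of these averaging at least 1 CPM. Their windows are printed 5′ to 3′ in the direction of transcription, because these genes are among the abundant ones of the set and their ratios differ in sign. Capitals mark TGACGTCA and, where present, CACGTG (the E-box bound by clock factors) and TATAAA on either strand.

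VGF, chr7:101165520-101165819, minus strand: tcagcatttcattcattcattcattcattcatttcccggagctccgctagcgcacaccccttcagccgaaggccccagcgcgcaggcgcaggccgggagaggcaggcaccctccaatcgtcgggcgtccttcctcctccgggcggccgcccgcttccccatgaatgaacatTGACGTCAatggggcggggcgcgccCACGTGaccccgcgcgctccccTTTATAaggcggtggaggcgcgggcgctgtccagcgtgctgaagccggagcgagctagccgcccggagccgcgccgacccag
CHGA, chr14:92922900-92923199, plus strand: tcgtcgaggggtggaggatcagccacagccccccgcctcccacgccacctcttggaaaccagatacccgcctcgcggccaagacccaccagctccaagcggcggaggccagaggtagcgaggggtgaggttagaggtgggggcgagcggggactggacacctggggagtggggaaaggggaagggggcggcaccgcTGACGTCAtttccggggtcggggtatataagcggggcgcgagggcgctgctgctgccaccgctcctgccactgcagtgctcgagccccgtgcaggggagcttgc
PCSK1, chr5:96433199-96433498, minus strand: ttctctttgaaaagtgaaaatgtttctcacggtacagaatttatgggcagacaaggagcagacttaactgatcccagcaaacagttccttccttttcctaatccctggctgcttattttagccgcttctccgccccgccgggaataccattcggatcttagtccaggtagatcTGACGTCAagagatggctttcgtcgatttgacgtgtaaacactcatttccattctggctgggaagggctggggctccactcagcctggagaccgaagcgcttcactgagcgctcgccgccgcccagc

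The element begins 79 bases before the annotated start in VGF, 54 before it in CHGA and 77 before it in PCSK1. VGF also holds an E-box 54 bases before its start, the only one among the 8 genes, against 12.8% of the genes with a window and at least 1 CPM. The genes that share the element had log2 ratios of -0.30 (VGF), -0.11 (CHGA) and 0.11 (PCSK1), which differ in sign. The shorter motif TGACG, which TGACGTCA contains on both strands, was found on either strand in 7 of the 8 genes, all but PCSK1N, against 41.4% of the genes with a window and at least 1 CPM. The GC box GGGCGG was in 7 of the 8 genes, all but CPE, against 77.6%. A match of letters is a description and not evidence that a factor binds.

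Both arms of the RE1 element recognised by REST were also searched, on either strand, as CAGCACC and GGACAGC. SCG3 was the only gene of the 8 that held both, and its window is shown for that reason, with the arms in capitals.

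SCG3, chr15:51681253-51681552, plus strand: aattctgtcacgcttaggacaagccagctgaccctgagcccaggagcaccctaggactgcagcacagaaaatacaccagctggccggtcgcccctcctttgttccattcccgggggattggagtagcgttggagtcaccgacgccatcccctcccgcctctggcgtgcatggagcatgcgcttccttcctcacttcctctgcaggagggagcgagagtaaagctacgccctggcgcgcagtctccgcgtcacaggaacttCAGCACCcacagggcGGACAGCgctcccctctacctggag

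They begin 11 and 26 bases after the annotated start, on the plus strand of the gene. The left arm occurs in 9.89% and the right arm in 9.0% of the genes with a window and at least 1 CPM, and the right arm was also present in VGF, PCSK1 and PCSK2. The share of genes holding both arms was not counted. The spacing of the arms was not compared with that of a full RE1 element, so the match does not show that SCG3 holds one. SCG3 had a log2 ratio of -0.11 beside that of REST at -0.44. The other genes with the right arm were at -0.30 (VGF), 0.11 (PCSK1) and 0.0024 (PCSK2), which differ in sign. A link of these ratios to REST was not tested.

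By position (GENCODE v29, GRCh38), the genes are spread over 8 chromosomes. CHGA lies on chromosome 14 (92923080 to 92935293, plus strand) and VGF on chromosome 7 (101162509 to 101165593, minus strand). CHGB (5911430 to 5925361) and PCSK2 (17226107 to 17484578) are both on the plus strand of chromosome 20, and SCG5 (32641676 to 32697098) and SCG3 (51681353 to 51721031) on that of chromosome 15. SCG2 is on chromosome 2 (223596940 to 223602503, minus strand), PCSK1 on chromosome 5 (96390415 to 96434143, minus strand), CPE on chromosome 4 (165361194 to 165498320, plus strand) and PCSK1N on chromosome X (48831094 to 48835633, minus strand). Transcript GC content ranged from 41.6% in SCG3 to 74.5% in PCSK1N. Exons of SCG5 share 11 bases with an annotated antisense gene, AC123768.1, and reads there cannot be assigned without strand. No exon of the other 9 genes overlaps an exon of another gene.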

How the data were processed

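Per the labels, RNA from hNCI-H716 cells was extracted with a Qiagen RNeasy Plus kit and polyA-selected libraries were made with the Illumina TruSeq v2 kit, which does not mark strand. The authors trimmed reads (Trim Galore 0.5.0), aligned them to GRCh38 by STAR 2.6.0, quantified genes by RSEM 1.3.1, dropped genes with a total under 1 expected count and named TMM scaling, though the deposited CPM without the prior sum to 1000000 in each library. The deposited values are CPM, the log2 of that CPM, the mean of the libraries and the fold between them; only the CPM of each library was used here. The deposited ratio and log2 fold of the authors were not used.

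A prior of 0.0121 CPM was found in the deposited CPM and kept. Library totals and estimated counts were recovered from the steps between low values, of which 74.0% (low glucose) and 74.2% (high glucose) under 10 CPM were whole within 0.05 counts, so no count model was run. TMM factors computed from them were 0.998 and 1.002. Genes averaging at least 1 CPM were compared, with no test. Lengths, GC content (median over basic coding transcripts) and positions came from GENCODE v29. EIPR1 was matched by its older symbol, TSSC1. Python 3.11.15, numpy 2.4.6, pandas 2.3.3 and scipy 1.17.1 were used, and calculations were tested on simulated data.

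All 10 genes of the set are named. Of the other lists, the genes past 1.2-fold whose interval excludes 0 and the highest per kb are named by rule, except that 2 listed genes are not reported here; others named from the lists were chosen for their role after their values were seen. The genes and lists were chosen with earlier results of these data known. Protein sequences were not analysed here.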

Additional observations from a re-analysis of the deposited data

How the results depend on the processing

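Of 162 values recomputed under an alternative, 142 stayed within the counting interval, the spread of the members or 1.5 times the main count, 20 moved, and 0 of the values past 1.2-fold changed sign. With the GC band median taken off, an alternative chosen after seeing the data, the log2 ratios of VGF (-0.20), CHGA (-0.040), PCSK1 (0.074) and CPE (-0.039) left their counting intervals, and the near-0 ratios of SCG2 and PCSK2 went to -0.040 and -0.036, within theirs. The count of members past 1.2-fold, 2 lower and 0 higher in high glucose, was the same with library totals, median-of-ratios factors and a pseudocount of 1 CPM. The median log2 ratio of the members, -0.062, was -0.031 with no filter and at a minimum mean of 10 CPM, and between -0.062 and -0.058 under the other scalings and pseudocounts. The count was 0 lower at 1.5-fold and 0 lower at 2-fold, 1 lower at a mean of at least 10 CPM, 1 lower with the GC band median taken off, 1 higher with no filter (PCSK1N), and 1 higher and 5 lower by the counting interval. The other processing genes, 1 higher and 2 lower, gave 0 lower at 1.5-fold, 0 higher and 0 lower at 2-fold, 3 higher and 5 lower by the counting interval, 2 higher and 6 lower with no filter, and 0 higher and 1 lower at a mean of at least 10 CPM. These follow from the thresholds, and for the GC band the cause was not tested. The protein features planned were not run. Depth limits PCSK1N most, then SCG5. No paired analysis was possible because there is 1 library per glucose concentration.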
